A study of Mus musculus with 96 samples.

Results

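Chemokines and their receptors were described in osteoblast cultures of 42 Collaborative Cross mouse strains. The set holds every gene whose symbol is Ccl, Cxcl, Ccr, Cxcr, Xcr or Ackr followed by a number (with at most 1 copy letter), and Cx3cl1. It came to 58 of the 37945 genes in the deposited table, namely 37 ligands, 17 receptors and 4 atypical receptors. Of these, 33 reached 0.5 TPM (a transcript abundance corrected for length and scaled to the same total in each library) in at least 2 libraries and are described: 25 ligands, 6 receptors and 2 atypical receptors. The other 25 were lower, 5 of them with 1 library at 0.5 TPM, 20 with none, and 1 of these, Ccl26, listed at 0 in every library.

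Collaborative Cross strains are inbred lines that each fix a different mosaic of several founder genomes, and strain was the sole difference between groups that the labels gave. All groups shared the rest: calvarial cells of pups aged 3 to 5 days, grown for 48 h and then differentiated for 10 days with beta-glycerol phosphate and ascorbic acid, with no other treatment named. Total RNA was sequenced from 95 libraries (1 CC030 sample was sequenced 2 times and entered as its mean). There were 31 strains with 2 libraries, 2 with 3, 6 with 4, and CC011, CC024 and CC035 with 1. The labels did not say whether libraries of a strain came from separate animals, pools or cultures, so p-values measured the spread between these libraries, which may in part be technical. They gave no sex, litter or batch.

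Chemokines are small secreted proteins that guide migrating cells through 7-helix receptors coupled to inhibitory G proteins. CC and CXC ligands are named for the spacing of their conserved cysteines, and atypical receptors bind ligands without signalling through G proteins and so remove or store them. In bone, Cxcl12 from stromal and osteoblast lineage cells holds Cxcr4-bearing blood precursors in the marrow, while Ccl2, Ccl3 and Ccl9 are known for drawing monocytes and osteoclast precursors.

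The cultures expressed the genes of their label. All 14 osteoblast markers and all 14 macrophage markers on the lists were measured, and their summed levels ran from 12020 (CC055) to 27550 (CC061) and from 27.4 (CC005) to 1437 (CC030) scaled TPM over the strain means. Scaled TPM is the deposited value divided by a scaling factor per library. All 5 markers of perivascular stroma were measured too (median over strains 34.98 for Pdgfrb and 6.75 for Lepr). Within strains, 3 of them rose with the macrophage score (11.9% of all genes did). Across strains, 3 fell with the osteoblast score and 1, Foxc1, rose (13.8 and 11.1% of all genes). Of the other lists, 0 of 5 B cell, 0 of 3 epidermal, 1 of 6 mast cell, 2 of 6 T cell, 3 of 6 dendritic, 4 of 6 endothelial, 4 of 8 neutrophil and 4 of 8 osteoclast markers passed 0.5 TPM in 2 libraries, with Cd3e, Pecam1 and Ly6g under 0.5 in all. TPM keeps no sequencing depth, so the depth behind each value was unknown. The 2 runs of the CC030 sample differed over the 33 genes by a median of 0.082 on the log2 scale, with 26 genes higher in run 1 and 6 in run 2, and by at most 0.66 (Ccl17).

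One library stood apart. CC051 replicate 1 had the highest value of the 95 libraries for 10 of the 33 genes and the lowest for 2 (Ackr4 and Ccr10), while CC051 replicate 2 lay among the other libraries. Its osteoblast score was the lowest of all libraries (-2.78, against 0.70 in replicate 2), and results that rest on it are given with and without it. Of the 14 osteoblast markers, 5 were at their lowest there. No share of all genes at an extreme in this library is given here, so counts of genes in it have no background.

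**Figure D1:**
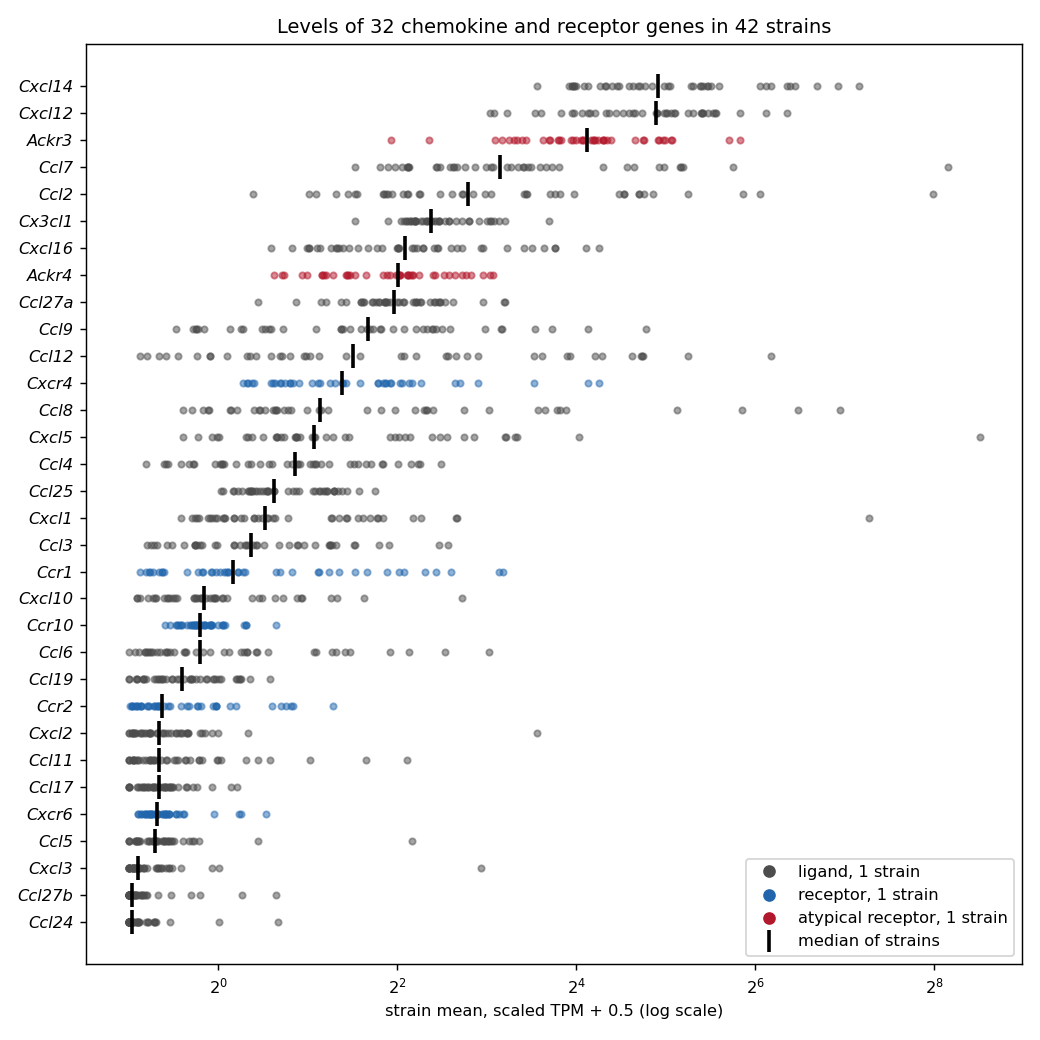
Levels of 32 of the described genes, 1 row per gene in order of the median over strains. Each point is the mean of 1 strain as scaled TPM + 0.5 on a log axis, colored by ligand, receptor or atypical receptor, and the bar is the median of the 42 strains. Cxcl14 and Cxcl12 lie at the top (medians 29.6 and 29.3), and the single far-right points of Cxcl5, Ccl7, Ccl2 and Cxcl1 are CC051.

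Cxcl14 and Cxcl12 were the most abundant ligands. In bulk cultures, fewer cells of a type and less RNA per cell cannot be told apart, and this holds for every level here. Cxcl12, the ligand of Cxcr4 and Ackr3, had a median of 29.3 scaled TPM over the strain means, from 7.70 in CC025 to 81.3 in CC038. The 4 CC038 libraries were at 33.6, 100.5, 127 and 64.1, and the 4 CC025 libraries at 6.78, 10.7, 5.19 and 8.17. The ranges of these strains did not overlap, which is no separate support, since they were picked as the highest and lowest. Of 39 strains with at least 2 libraries, 4 were above the mean of the other strains and 5 below it: CC038 was higher by 1.56 ± 0.25 on the log2 scale (limma, adjusted p = 3.39e-06) and CC030 by 1.49 ± 0.35 (adjusted p = 0.0014), with both CC030 libraries high, at 67.3 and 70.5. CC041 (4 libraries at 14.1, 6.36, 16.7 and 9.42) was lower by 1.19 ± 0.25 (adjusted p = 0.00036). The strain effect was among the clearest of the ligands (adjusted p = 2.04e-10), with an intraclass correlation (the share of variance between strains) of 0.72.

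The isoforms of Cxcl12 moved little against each other. The transcript coding for 89 residues held a median of 74.6% of the gene's TPM (60.3 to 81.6% over strain means), the transcript for 93 residues 23.2% (16.2 to 36.7%), and that for 119 residues 1.28%. These shares rest on how reads were divided among overlapping transcripts, for which the sources used here name no tool.

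Cxcl14, a CXC ligand of skin and connective tissue whose receptor is not settled, had a median of 29.6, from 11.3 in CC037 to 142 in CC051. The CC051 mean rested on replicate 1 (268, against 16.6 in replicate 2). Next came CC038, with 4 libraries at 69.0, 164, 97.9 and 153.4, and the CC037 libraries were at 10.7 and 11.9. CC038 was higher than the other strains by 1.90 ± 0.33 on the log2 scale (adjusted p = 2.08e-05) and CC008 by 1.64 ± 0.33 (4 libraries at 132.1, 51.0, 131.5 and 95.01, adjusted p = 0.00023). Every CC038 and CC008 library lay above both CC037 libraries, but these strains were picked for their high and low values.

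Ackr3, the atypical receptor that takes up Cxcl12, came next in abundance (median 16.9). It was highest in CC012 (75.2 and 37.3) and CC016 (75.4 and 28.4) and lowest in CC071 (3.58 and 3.03) and CC030 (3.42 and 5.78). All 4 libraries of the low pair lay below all 4 of the high pair, but the pairs were picked as the ends. CC012 was higher than the other strains by 1.72 ± 0.36 on the log2 scale (adjusted p = 0.00042) and CC016 by 1.52 ± 0.36 (adjusted p = 0.0019), while CC071 fell by 2.20 ± 0.36 (adjusted p = 7.88e-06) and CC030 by 1.80 ± 0.36 (adjusted p = 0.00023). CC012 had the highest osteoblast score of the 42 strains (0.968), and CC071 and CC030 the lowest pair (-1.99 and -1.86).

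Ackr4, which binds Ccl19, Ccl21 and Ccl25, had a median of 3.54. It ran from 1.04 in CC032 (1.39 and 0.695) to 7.87 in CC009 (7.37 and 8.36). Of the 31-base words of its transcripts, 8.11% also occur on the opposite strand of other genes, mainly Acad11. The sources used here do not say whether the counting used strand. Ackr1 and Ackr2, which clear inflammatory CC and CXC ligands, stayed at or under 0.058 and 0.175 TPM.

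Several monocyte-attracting ligands of the chromosome 11 cluster spanned wide ranges. Ccl8 had a median of 1.70 scaled TPM and a strain mean of 123 in CC038. Its CC038 libraries were at 17.9, 225.5, 187.2 and 60.0, its CC030 libraries at 109 and 67.96, and its CC013 libraries at 0.0698 and 0.451. All 4 CC038 and both CC030 libraries lay above those of CC013, but these strains were picked for their high and low values. CC038 was higher than the other strains by 4.94 ± 0.58 on the log2 scale (adjusted p = 2.1e-09), CC030 by 5.01 ± 0.82 (adjusted p = 5.35e-06) and CC055 by 3.60 ± 0.82 (adjusted p = 0.00099).

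Ccl12, a mouse ligand of Ccr2, had a median of 2.35. The highest value was 71.8 in the single CC024 library, followed by 37.3 and 37.9 in CC030, and the lowest among strains with replicates were 0.154 and 0 in CC002. The CC030 libraries were almost equal and the log2 range over strain means was 6.06 (adjusted p of the strain effect 8.25e-15). CC071 was higher by 2.98 ± 0.57 (24.4 and 27.5, adjusted p = 8.32e-05), and CC041 fell by 2.52 ± 0.41 (0.0767, 0.105, 0.484 and a library listed at 0, adjusted p = 4.22e-06).

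Ccl2, the main monocyte chemoattractant, had a median of 6.42. Both CC005 libraries were at 0.81 and 0.80, and the CC030 libraries at 81.7 and 34.0. The 4 CC038 libraries were close together at 25.7, 27.2, 26.4 and 23.0. CC030 was higher by 2.86 ± 0.71 on the log2 scale (adjusted p = 0.0029) and CC005 fell by 2.63 ± 0.71 (adjusted p = 0.0064). Ccl7, which acts on Ccr1, Ccr2 and Ccr3, had a median of 8.37, was present in every library, and was lowest in CC075 (3.54, 1.72 and 1.93). In CC038 it was at 21.1, 40.9, 41.2 and 38.1, higher than the other strains by 1.95 ± 0.50 (adjusted p = 0.0036). The top strain mean of both genes was CC051 (254 and 285), where replicate 1 stood at 505 and 565 and replicate 2 at 2.17 and 4.14.

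Ccl11, an eosinophil attractant that lies between Ccl7 and Ccl12, was low (median 0.134, and 20 libraries listed at 0). CC038 was the high strain, at 0.625, 4.22, 8.28 and 2.12, higher than the others by 2.24 ± 0.32 on the log2 scale (adjusted p = 2.16e-07), and CC008 was higher by 1.47 ± 0.32 (1.89, 0.710, 1.66 and 1.91, adjusted p = 0.00051). CC038 was thus high for 4 ligands of this cluster besides Ccl2, and for Cxcl12, Cxcl14 and Cxcl5, while its macrophage score ranked 18 of 42 strains (summed macrophage markers 301, median 193.2). Its Ccr1 was lower than in the other strains (fell by 0.77 ± 0.22, adjusted p = 0.011).

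The other CC ligands with many macrophage sources were lower. Ccl9, which draws osteoclast precursors through Ccr1, had a median of 2.70, with 48.8 and 4.88 in CC030, 13.1 and 12.5 in CC055, and 0.550 and 0.0922 in CC002. The CC030 libraries lay far apart, while those of CC055 were alike. CC030 was higher by 2.56 ± 0.51 on the log2 scale (adjusted p = 0.00016), CC008 by 2.33 ± 0.36 (adjusted p = 2e-06) and CC055 by 2.26 ± 0.51 (adjusted p = 0.00088). Its neighbour Ccl6 had a median of 0.367 and was higher in 6 strains, CC030 (13.2 and 2.07) and CC008 (7.62, 2.52, 1.89 and 3.49) among them.

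Ccl3 and Ccl4, adjacent inflammatory ligands that macrophages make, had medians of 0.786 and 1.31. Ccl4 was highest in CC030 (5.51 and 4.71). Ccl3 had its highest strain mean in CC051, where replicate 1 was at 10.7 and replicate 2 at 0.227. In CC008, the next strain, it was at 2.67, 0.915, 6.71 and 9.82, higher than the other strains by 1.70 ± 0.31 (adjusted p = 5.1e-05). Ccl5, an attractant of T cells and monocytes, had a median of 0.115 and its strain effect missed the threshold (adjusted p = 0.175). Without CC051 the same test gave an adjusted p of 0.0111, with a log2 range of 1.44 in place of 2.04.

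Cxcl16, a membrane-bound ligand of Cxcr6 that macrophages carry, had a median of 3.76 and passed 0.5 TPM in every library. It was highest in CC071 (18.7 and 18.5) and lowest in CC005 (0.758 and 1.25). CC071 was higher by 2.17 ± 0.31 on the log2 scale (adjusted p = 4.4e-07), and CC005 fell by 1.62 ± 0.31 (adjusted p = 0.00012). Of its 31-base words 18.5% also occur on the opposite strand, in Zmynd15. A transcript annotated as a target of nonsense-mediated decay held a median of 65.4% of the gene's TPM, and the coding transcript 22.1%. Cx3cl1, the membrane-bound ligand of Cx3cr1, was steadier: median 4.70, from 2.39 in CC037 (2.16 and 2.62) to 12.5 in CC030 (16.0 and 8.995).

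Among receptors, Cxcr4, the receptor of Cxcl12, had a median of 2.12. It was at 21.5 and 15.8 in CC030, 14.4 and 19.7 in CC055, 10.9 and 11.2 in CC071, and 0.732 and 0.689 in CC057. CC030 was higher by 2.78 ± 0.32 on the log2 scale (adjusted p = 1.29e-09), CC055 by 2.65 ± 0.32 (adjusted p = 4.94e-09) and CC071 by 2.05 ± 0.32 (adjusted p = 2.71e-06). These were 3 of the 4 strains with the lowest osteoblast scores, and they also ranked 1, 2 and 3 of the 42 strains for the macrophage score.

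Ccr1, the receptor of Ccl3 and Ccl9 on osteoclast precursors, had a median of 0.624. Its libraries were at 7.39 and 9.20 in CC071 and 8.57 in the CC024 library, against 0.0344 and 0.107 in CC005. CC071 was higher by 2.70 ± 0.31 (adjusted p = 9.99e-10). Ccr2, the receptor of Ccl2, was low (median 0.146) and was called higher in 6 strains, among them CC071 (1.76 and 2.11) and CC055 (1.33 and 1.23), higher by 1.71 ± 0.21 (adjusted p = 8.54e-09) and 1.25 ± 0.21 (adjusted p = 1.2e-05). Cxcr6 stayed under 1.6 in every library, with 1.51 and 0.391 in CC023. Ccr10, the receptor of Ccl27 and Ccl28, had a median of 0.368, was highest in CC061 (0.762 and 1.37) and lowest in CC071 (0.129 and 0.193). Of the 31-base words of Ccr2, 3.41% occur in other genes, so a small part of its reads may be shared.

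The neutrophil-attracting ligands Cxcl1, Cxcl2, Cxcl3 and Cxcl5, which act on Cxcr2, were low in most strains and very high in CC051 replicate 1. Cxcl5 had a median of 1.60 over strain means. In CC051 replicate 1 it was at 726.5, in replicate 2 at 1.03, and the highest of the other 94 libraries was 22.0 (CC032 replicate 1). Cxcl1 was at 307 and 0.322 in the CC051 libraries, where the median of the others was 0.851 and the highest 10.55. Cxcl2 was at 22.5 and 0.0963 against a highest other value of 0.850, and Cxcl3 at 14.2 and 0.0672 against 0.758. Single-library values were thus 508.6, 361.2, 187.2 and 331.7 times the median of the other libraries, with no replicate that shared them.

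Promoters of Cxcl1, Cxcl2 and Cxcl3 are shown because these genes rose together in that library, beside Cxcl10, an interferon-induced ligand of Cxcr3. They are the 250 bases before the RefSeq start in GRCm38.p6, at chr5:90890995-90891244 (plus strand), chr5:90903649-90903898 (plus), chr5:90785851-90786100 (plus) and chr5:92348890-92349139 (minus), each written 5′ to 3′ with the start just after the last base. Capitals mark matches, on either strand, to a 10-base kappaB motif with 2 free bases, 1 of the forms bound by NF-kB. In Cxcl10 they mark an interferon response motif of the same length, also with 2 free bases. Other forms of the kappaB motif were not searched, so stretches in small letters, also in Cxcl10, may hold such sites. Cxcl5, Ccl2, Ccl5 and Ccl7 also rose in CC051 replicate 1 but had no promoter entry, so they were not searched.
Cxcl1: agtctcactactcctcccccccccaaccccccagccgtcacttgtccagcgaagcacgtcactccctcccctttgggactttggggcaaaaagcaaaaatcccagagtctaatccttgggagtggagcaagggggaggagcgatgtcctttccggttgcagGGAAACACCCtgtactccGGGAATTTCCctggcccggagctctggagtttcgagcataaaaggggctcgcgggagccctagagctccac
Cxcl2: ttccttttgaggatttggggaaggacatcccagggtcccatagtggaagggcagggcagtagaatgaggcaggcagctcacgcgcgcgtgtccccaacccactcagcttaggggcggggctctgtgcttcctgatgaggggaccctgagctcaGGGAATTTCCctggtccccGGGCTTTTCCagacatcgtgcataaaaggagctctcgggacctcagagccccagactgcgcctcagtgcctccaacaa
Cxcl3: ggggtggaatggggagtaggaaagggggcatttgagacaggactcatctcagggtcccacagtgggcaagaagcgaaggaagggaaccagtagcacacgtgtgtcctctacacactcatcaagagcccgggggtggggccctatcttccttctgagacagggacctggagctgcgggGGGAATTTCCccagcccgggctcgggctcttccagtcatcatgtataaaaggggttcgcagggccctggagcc
Cxcl10: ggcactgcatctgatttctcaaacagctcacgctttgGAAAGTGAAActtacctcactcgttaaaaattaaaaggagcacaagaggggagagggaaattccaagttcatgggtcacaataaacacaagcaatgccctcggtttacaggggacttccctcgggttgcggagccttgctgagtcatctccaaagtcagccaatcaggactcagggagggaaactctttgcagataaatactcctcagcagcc

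One identical form of the kappaB motif lay 71 bases before the start in Cxcl1, 97 in Cxcl2 and 73 in Cxcl3, counted from its first base. Cxcl1 held a further site 89 bases before the start on the other strand and Cxcl2 one at 78. The kappaB motif occurred in 1.40% of 27025 promoter windows of this length and in 4 of the 23 described genes with an entry (Ccl9 besides those 3), and the identical form in 0.0851% and in the 3 genes shown. The interferon motif lay 213 bases before the start of Cxcl10, and occurred in 3.04% of windows and in Ccl19, Cxcl10 and Cxcl14. TATAAA (12.97% of windows) was found in 8 of the 23 and GAGGAAGT, a PU.1 form (2.44%), in none. Both strands were searched, and a match is a run of letters in this window, not a measured binding site.

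Other members moved with them in CC051 replicate 1. Ccl2 and Ccl7 were 85.7 and 74.7 times the median of the other libraries, Ccl5 was at 7.95 (listed at 0 in replicate 2, median 0.0878), and Cxcl10 at 11.5 against 0.678 in replicate 2. In all, 12 genes were over 10 times the median of the other 94 libraries, a count without a share of all genes beside it. Ccl12 was not: 1.59 and 1.30, near the median of 1.84. Outside the described genes, Ccl20 was at 5.66 TPM and Cxcl9 at 0.742 in this library, with 0.119 and 0.193 the highest elsewhere. Cxcr2 and Cxcr1, the receptors of the neutrophil-attracting ligands, were at 0.0108 TPM and 0.

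Marker lists in the same library went as follows. Of 14 measured genes for NF-kB and its inducers, 11 had their highest value of all libraries there, such as Il6 (31.1, against 0.186 in replicate 2 and 2.28 as the highest elsewhere) and the NF-kB inhibitor Nfkbia (51.9, 6.58 and 19.98). The summed list was 353.3 in replicate 1 and 103.5 in replicate 2 (median of other libraries 105). Of 8 neutrophil markers, S100a8 (6.97) and Camp (7.72) were at their highest, giving a sum of 14.9 against 0.110 in replicate 2 and a median of 0.542. The other 2 measured, Mpo and Csf3r, were at 0.0536 and 0.118 (medians 0.125 and 0.129), while S100a9, Ly6g, Elane and Ngp were under 0.5 TPM in every library. Summed osteoblast markers were the lowest of all libraries (10730, against 25610 in replicate 2), and summed macrophage markers ranked 51 of 95 (170, against 87.3). The part of these cells or signals in the chemokine values was not tested.

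**Figure D2:**
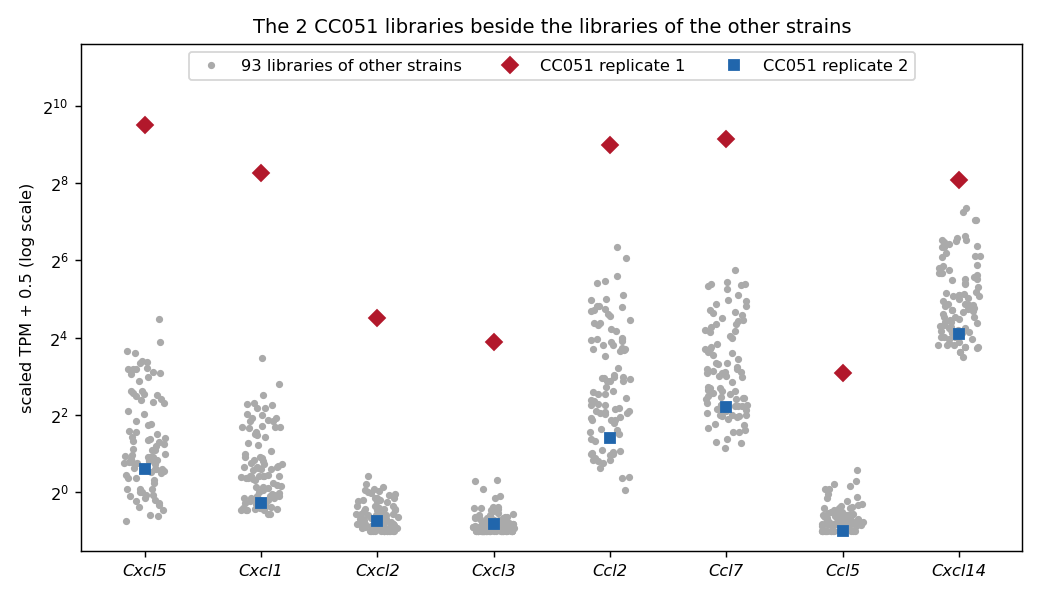
Scaled TPM + 0.5 on a log axis for 8 ligands, with grey points for the 93 libraries of the other strains, a red diamond for CC051 replicate 1 and a blue square for CC051 replicate 2. The diamond lies above every grey point in all 8 genes (Cxcl5 at 726.5), and the square lies within them.

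Outside CC051 these ligands still differed between strains, but Cxcl2 and Cxcl3 were near the floor there. They reached at most 0.850 and 0.758 scaled TPM, and their log2 ranges without CC051 were 1.33 and 0.96. With CC051 left out, the strain effect gave adjusted p-values of 1.46e-08 for Cxcl5, 3.25e-07 for Cxcl1, 9.15e-07 for Cxcl2 and 2.25e-06 for Cxcl3, where the whole set of strains had given 0.0002, 0.0066, 0.026 and 0.029. In the fit that kept CC051, Cxcl5 was higher in CC032 (22.0 and 9.62, by 2.59 ± 0.79 on the log2 scale, adjusted p = 0.017) and in CC038 (2.43, 14.5, 11.8 and 9.91, by 1.77 ± 0.56, adjusted p = 0.024). Cxcl1 was at 6.46 and 5.28 in CC045 and at 0.242 and 0.257 in CC009, strains picked for their high and low values. Neither was called for Cxcl1 in that fit. Cxcl2 and Cxcl3 share 7.59 and 5.46% of their 31-base words with other genes, mostly each other.

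Cxcl10 was low (median 0.395) and varied over a log2 range of 2.82 (adjusted p of the strain effect 5e-06). The range ran from CC074 (0.0267 and 0.0378) to CC051 (11.5 and 0.678), whose mean rested on replicate 1. Without CC051 it was 2.48 (adjusted p of the strain effect 1.08e-07). CC006 (1.72 and 3.47), CC030 (1.40 and 2.39) and CC040 (1.73 and 2.31) were also above the other strains, and CC071 was at 0.0695 and 0.0261.

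The remaining ligands were low. Ccl25, a thymus and gut ligand of Ccr9, had a median of 1.04 and was highest in CC009 (3.08 and 2.68). Ccl27a, a skin ligand of Ccr10, had a median of 3.39, with 8.70 and 8.72 in CC037 and 0.847 and 0.879 in CC039. Its strain effect was clear (adjusted p = 1.09e-11), but 56.96% of its 31-base words occur in other genes, as do 58.8% of those of Ccl19 and all of those of Ccl27b, so the values of these 3 are uncertain. Ccl19, Ccl17 and Ccl24 had medians of 0.255, 0.131 and 0.0139.

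Over the set, 31 of 33 genes passed the strain test (limma F test over 39 strains, false discovery rate 0.05), and 81.5% of all 15760 genes did, so the share is to be read against that. Ccl5 and Ccl27b (adjusted p = 0.485) did not pass. In the 20 strains with title numbers 20 or more apart 23 genes passed, and the calls lost were those of Ccl7 (adjusted p = 0.0926), Ccr10 (0.114), Cxcl5 (0.159), Cxcr6 (0.253), Ccl24 (0.31), Cxcl3 (0.331), Cxcl1 (0.363) and Cxcl2 (0.437). The median log2 range between the highest and lowest strain was 2.89 over the 33 and 1.02 over all genes tested, and the median intraclass correlation was 0.58 and 0.47. Ranges over 5 were those of Ccl8 (6.88), Ccl12 (6.06), Cxcl5 (5.47) and Ccl2 (5.35). Without CC051 the range of Cxcl5 was 4.32, and those of Ccl8, Ccl12 and Ccl2 were as before.

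Taking each strain against the mean of the others, 146 of 1287 gene and strain pairs were higher (11.3%, with 7.72% over all genes) and 107 were lower (8.31%, with 7.08%). Each of the 33 genes was called in at least 1 strain, as were 91.3% of all genes. CC030 had 19 genes higher and Ackr3 lower. CC008 had 17 higher and none lower. CC038 had 11 higher, CC055 10 and CC040 9. On the other side, CC041 had 14 lower and none higher, and CC005, CC037 and CC075 had 8 lower each. CC008, CC038 and CC041 had 4 libraries and smaller errors (for Ccl12 an SE of 0.405, against 0.566 in CC030 with 2). Counts of calls can therefore depend on the number of libraries. The share of all genes called in each strain is not given here. CC030 and CC055 had the highest macrophage scores of the 42 strains and CC005 and CC041 the lowest, while CC038 ranked 18 and CC008 ranked 8. In CC051, 8 genes were called higher (Ccl2, Ccl5, Ccl7, Cxcl1, Cxcl2, Cxcl3, Cxcl5 and Cxcl10), all on replicate 1, since replicate 2 was below the median of the other libraries for 6 of them, and was at 0.0672 (median 0.0429) for Cxcl3 and 0.678 (median 0.352) for Cxcl10.

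**Figure D3:**
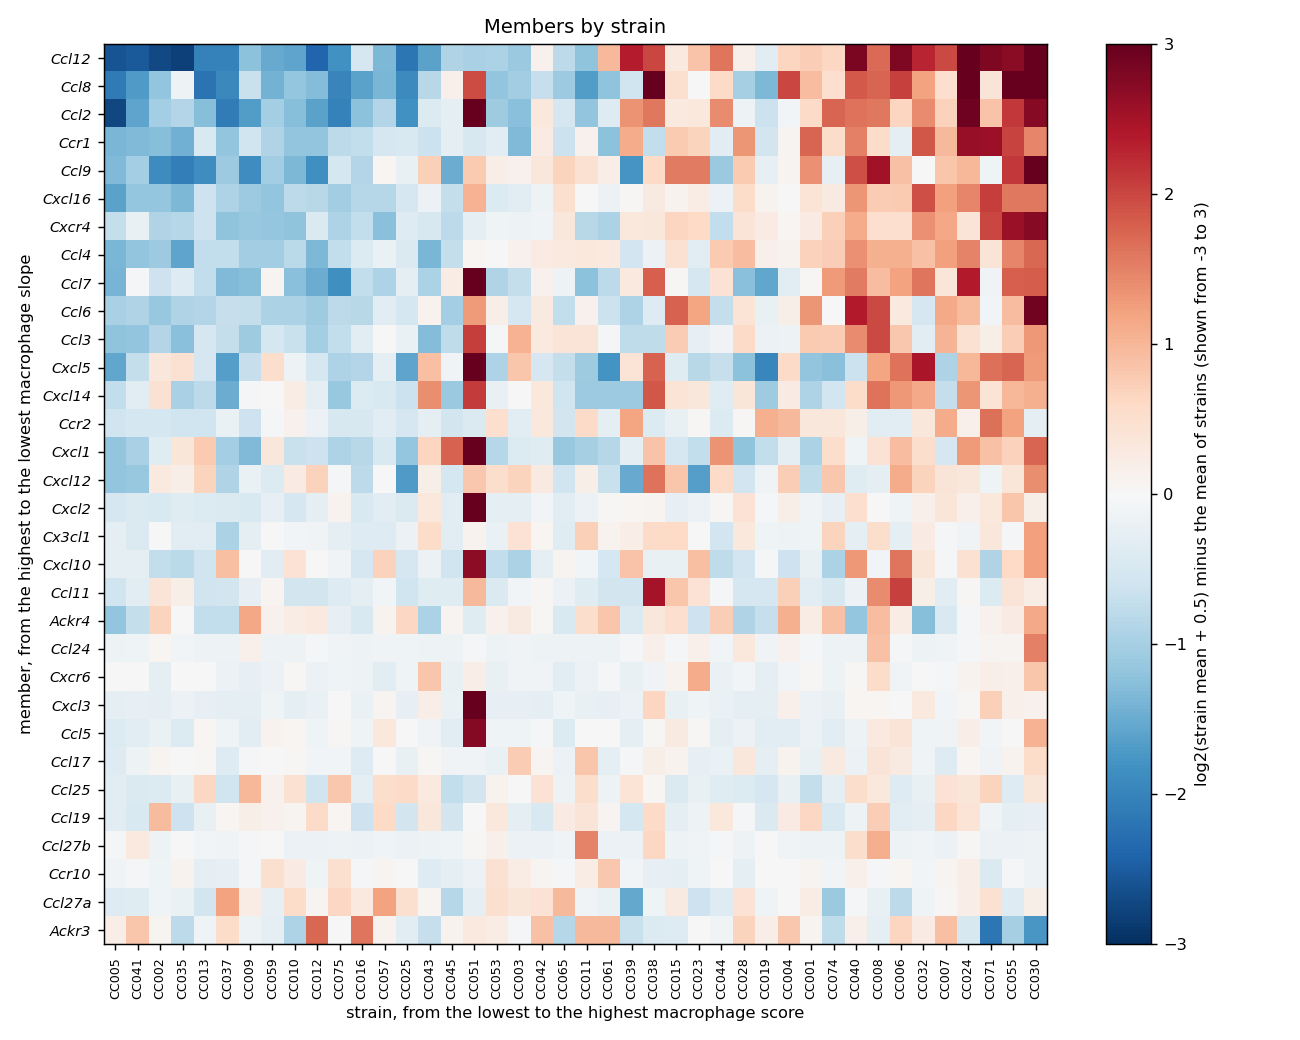
Heat map of 32 genes (rows, from the highest to the lowest macrophage slope) in 42 strains (columns, from the lowest to the highest macrophage score). Color is the strain mean minus the mean of strains of log2(scaled TPM + 0.5), shown from -3 to 3. The upper rows turn from blue on the left (CC005) to red on the right (CC030), CC051 is a red column in the middle for Cxcl1, Cxcl2, Cxcl3, Cxcl5, Ccl2 and Ccl7, and Ackr3 in the bottom row is blue at CC071 and CC030.

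Which cells of these cultures accompany the chemokine differences was examined with marker scores, the mean z-score of 14 macrophage or 14 osteoblast markers, none of them a chemokine gene. Across the 42 strains 17 of 33 genes rose with the macrophage score and none fell (13.4 and 11.7% of all genes), with a median slope of 0.25 against -0.00 over all genes. A slope is the change in log2(scaled TPM + 0.5) per 1 SD of the score. Steep slopes were those of Ccl12 (1.77 ± 0.12, adjusted p = 1.19e-16), Ccl8 (1.30 ± 0.19, adjusted p = 5.63e-07), Ccl2 (1.17 ± 0.13, adjusted p = 6.26e-10) and Ccr1 (0.96 ± 0.10, adjusted p = 5.52e-11). Cxcl16 had the smallest error for its slope among the called genes over 0.8 (0.88 ± 0.05), followed by Ccl4 (0.81 ± 0.06) and Cxcr4 (0.82 ± 0.08). Cxcl12 (0.25 ± 0.11, adjusted p = 0.097), Cxcl5 (0.42 ± 0.18, adjusted p = 0.082), Cxcl1 and Ackr3 did not pass.

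Libraries of the same strain gave a separate comparison, since strain then drops out. Within strains, 16 genes rose with the macrophage score and Ackr3 fell (11.9 and 8.93% of all genes). In all, 12 genes rose both across and within strains (7.71% of all genes did), among them Ccl2, Ccl3, Ccl4, Ccl6, Ccl7, Ccl8, Ccl9, Ccl12, Cxcl16, Ccr1 and Cxcr4. Ccl8 and Ccl12 had the steepest slopes (1.97 ± 0.31, adjusted p = 1.64e-06, and 1.64 ± 0.17, adjusted p = 4.17e-11). In strains with title numbers 20 or more apart the calls of Ccl8 (1.78, adjusted p = 0.0757), Ccl2, Ccl3 and Ccl7 were lost, and in those within 5 the calls of Ccl8 (adjusted p = 0.0521), Ccl6, Ccl7 and Ccr1. Ackr3 fell by 0.78 ± 0.15 per SD (adjusted p = 6.53e-05), a call that was lost in strains with title numbers 20 or more apart (-0.82, adjusted p = 0.142) and in those within 5 (-0.32, adjusted p = 0.252). In these subsets of the strains 8 and 9 genes rose within strains.

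**Figure D4:**
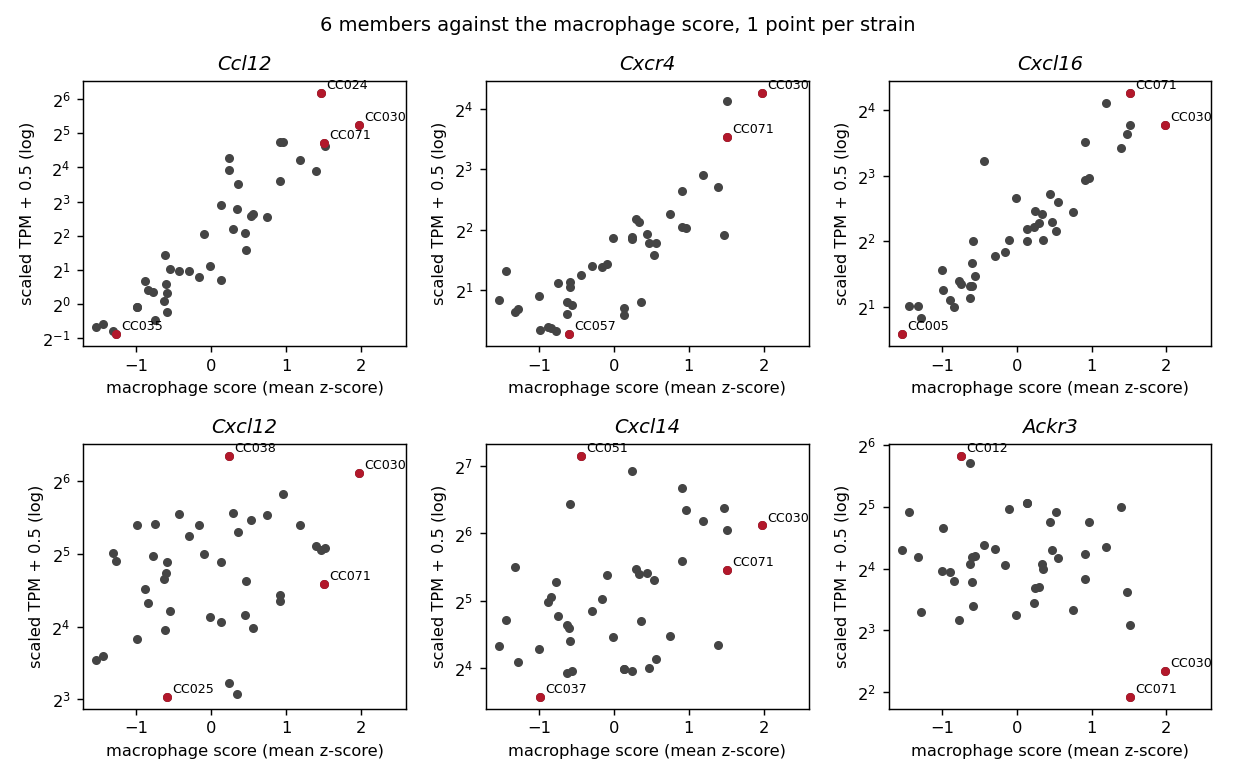
Strain means (scaled TPM + 0.5, log axis) of 6 genes against the macrophage score, 1 point per strain, with CC030, CC071 and the highest and lowest strain of each gene in red. Ccl12, Cxcl16 and Cxcr4 climb with the score, and Ackr3 is lowest at CC071 and CC030.

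With the macrophage score of each library as a covariate, 30 of 33 genes still passed the strain test (78.8% of all genes did). Small adjusted p-values were those of Ccl27a (5.47e-12), Ccr1 (9.86e-11), Cxcl12 (5.86e-10) and Ackr3 (1.61e-09). Cxcl16 and Ccl4, whose slopes had small errors, had adjusted p-values of 0.0008 and 0.024 there, after 5.08e-13 and 6.78e-09 without the covariate. The call of Ccl4 was lost without CC071 replicate 1 (adjusted p = 0.0603), without CC030 and CC071 (0.0679) and in strains with title numbers 20 or more apart (0.316), and that of Cxcl16 in the last (0.577). Ccl5, Ccl27b and Cxcl2 (adjusted p = 0.09) did not pass. In the 20 strains with title numbers 20 or more apart, 14 genes passed.

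The osteoblast score gave the reverse picture. Across strains, 15 of 33 genes fell with it and 2 rose (13.8 and 11.1% of all genes). Ackr3 rose by 0.60 ± 0.07 per SD (adjusted p = 8.67e-08) and Ccr10 by 0.12 ± 0.03 (adjusted p = 0.0074). The steepest falls were those of Ccl8 (-0.94 ± 0.23, adjusted p = 0.0026), Ccl2 (-0.83 ± 0.18, adjusted p = 0.00077), Cxcl5 (-0.81 ± 0.15, adjusted p = 6.41e-05), Ccl12 (-0.80 ± 0.27, adjusted p = 0.026) and Ccl7 (-0.70 ± 0.14, adjusted p = 0.00029). The call of Ccl12 was lost without CC030 and CC071 (-0.45, adjusted p = 0.344), without scaling (adjusted p = 0.0969) and without CC051 replicate 2 (adjusted p = 0.0871). In strains with title numbers within 5 the calls of Ccl12 (adjusted p = 0.203), Ccl8 (0.0892), Ccl2 (0.0889) and Ccl7 (0.0598) were lost, and in those 20 or more apart that of Ccr10 (adjusted p = 0.494). The osteoblast and macrophage scores themselves were related (Pearson's r = -0.43 over 42 strains, a description), so slopes on them are not separate lines of evidence. Without CC030 and CC071, the strains with the lowest osteoblast scores, 7 genes fell.

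**Figure D5:**
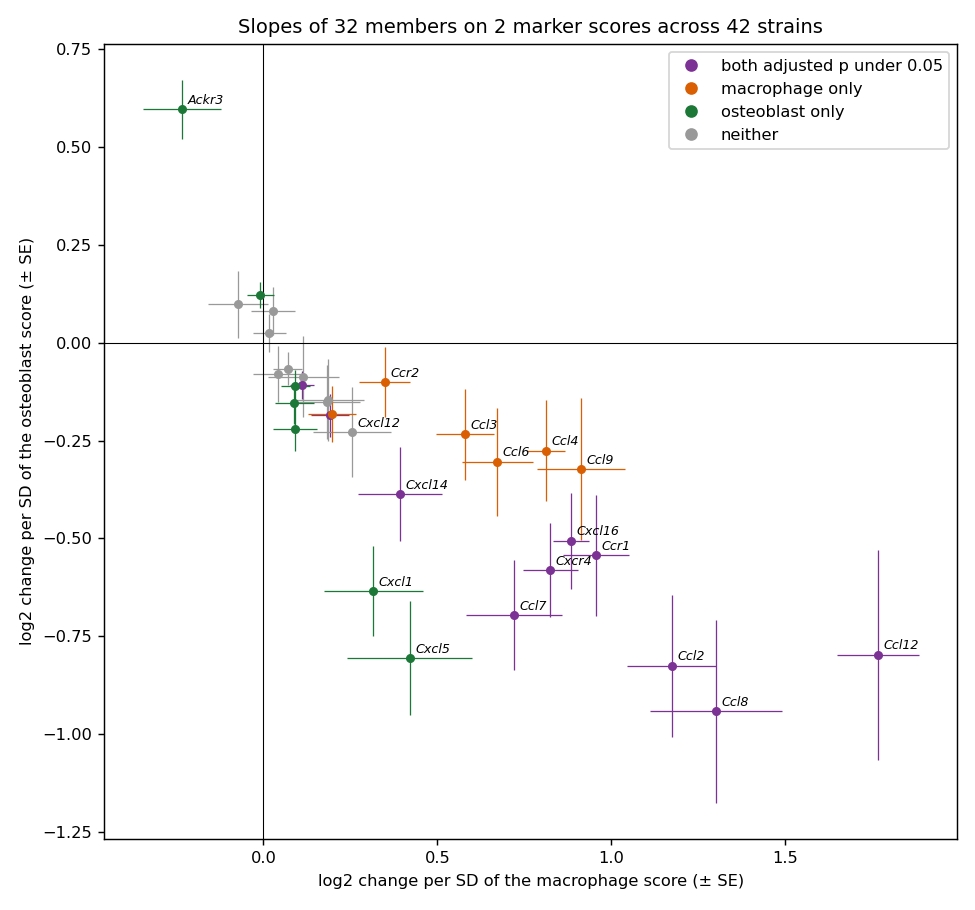
Slope on the macrophage score (x axis) against slope on the osteoblast score (y axis) for 32 genes, both in log2 per SD over 42 strains, with bars of 1 SE and colors for which slope passed an adjusted p of 0.05. Ccl12, Ccl8 and Ccl2 lie at the lower right, Cxcl5 and Cxcl1 low and farther left, and Ackr3 at the upper left (-0.23 and 0.60).

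The interferon score, from 14 induced genes, was related to 5 of 33 genes across strains, all rising (1.68% of all genes rose and 0.629% fell). They were Cxcl10 (0.48 ± 0.08 per SD, adjusted p = 4.94e-05), Ccl12 (1.07 ± 0.25, adjusted p = 0.01), Ccl8 (0.91 ± 0.24, adjusted p = 0.028), Ccl7 (0.56 ± 0.16, adjusted p = 0.046) and Ccl2 (0.69 ± 0.19, adjusted p = 0.046). The call of Cxcl10 held without each single library in turn and was lost in strains with title numbers within 5 (0.29, adjusted p = 0.306). Those of the 4 CC ligands were lost without CC024 replicate 1, the strain with the highest score (Ccl12 0.88, adjusted p = 0.0717, and Ccl8 0.72, adjusted p = 0.149), and leaving out 1 of 18 libraries left 3 genes or fewer. Ccr1 was at 0.52 ± 0.16 (adjusted p = 0.059). The interferon and macrophage scores were themselves related (Pearson's r = 0.44 over 42 strains, a description). Slopes on these 2 scores are therefore not separate lines of evidence.

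Neighbouring genes varied together. Of 20 pairs examined over the 42 strain means of log2 values, 17 passed an adjusted p of 0.05 for Pearson's r (two-sided permutation, 100000 resamples, for which 1e-05 is the smallest possible p), including all 13 pairs from shared gene clusters, whose r ran from 0.38 to 0.89. Both genes of a pair were read from the same libraries, and many of these genes also rose with the macrophage score. No background of other gene pairs is given here, so the part of gene position was not tested. Ccl2 and Ccl7, adjacent on chromosome 11, had r = 0.89 and rho = 0.85 (permutation p = 1e-05 for both, adjusted 2.5e-05 and 3.33e-05), and r = 0.86 without the 2 strains farthest from the median. Ccl6 and Ccl9 had r = 0.89 and rho = 0.91, Ccl3 and Ccl4 0.87 and 0.87, and Ccl12 and Ccl8 0.80 and 0.79, each with the same permutation p and with r of 0.87, 0.86 and 0.74 without the farthest strains. Cxcl1 and Cxcl5, with 4 coding genes between them on chromosome 5, had r = 0.76 and rho = 0.77 (0.68 for r without CC051). Cxcl1 and its neighbour Cxcl2 had r = 0.59, and 0.35 without CC051. Ccl11 with Ccl12 was the weakest cluster pair (r = 0.38, permutation p = 0.0119, adjusted 0.0159, rho = 0.39, and r = 0.28 without CC038 and CC006).

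Of 7 pairs of a ligand and its receptor, 4 passed the threshold. Ccl9 with Ccr1 had r = 0.60 and rho = 0.60 (permutation p = 5e-05 and 6e-05, adjusted 0.00011 and 0.00012), and Ccl3 with Ccr1 r = 0.56 and rho = 0.61. Cxcl16 with Cxcr6 (r = 0.37) and Ccl2 with Ccr2 (r = 0.36) also passed. Cxcl12 did not pass with Cxcr4 (r = 0.25, rho = 0.28, permutation p = 0.105 and 0.0748, adjusted 0.117 and 0.0832) or with Ackr3 (r = -0.13, rho = -0.09, permutation p = 0.429 and 0.594).

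Genes that carry chemokine receptor signals were taken from a fixed list of 25 (G proteins, arrestins, receptor kinases, Rac activators and the like). Of these, 24 passed the strain test (81.5% of all genes did), 17 rose and 1 fell with the macrophage score (13.4 and 11.7%), and 2 rose and 15 fell with the osteoblast score (11.1 and 13.8%). Vav1, a Rac activator of blood cells, rose by 1.09 ± 0.03 per SD of the macrophage score (adjusted p = 1.79e-30), Dock2 by 0.96 ± 0.03 (adjusted p = 3.02e-28) and Arrb2, the arrestin that internalizes receptors, by 0.80 ± 0.03 (adjusted p = 5.44e-27). Gnai2, the main inhibitory G protein subunit, was at 81.6 scaled TPM (66.02 to 105.6 over strain means) and rose by 0.10 ± 0.02 (adjusted p = 2.21e-05). Elmo1 and Prex1 were the 2 that rose with the osteoblast score. Of 14 measured genes for NF-kB and its inducers, 10 rose with the macrophage score and 12 fell with the osteoblast score (13.4 and 13.8% of all genes).

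Chemokine system genes outside the set followed similar lines. Pf4, a platelet and macrophage chemokine, had a median of 17.0 and rose by 1.68 ± 0.10 per SD of the macrophage score (adjusted p = 1.09e-17), and Cx3cr1, the receptor of Cx3cl1, had a median of 1.96 and rose by 0.97 ± 0.11 (adjusted p = 7.09e-10). Of 8 measured, 5 rose with the macrophage score and none fell (13.4 and 11.7% of all genes), and 4 fell with the osteoblast score (13.8%). Mif, a ligand of Cxcr4 and Cd74, was at 575 and had a slope of -0.02 ± 0.04 (adjusted p = 0.701).

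The 25 genes that were not described were low throughout. The highest values were 5.66 TPM for Ccl20 and 0.742 for Cxcl9 (both in CC051 replicate 1), 0.944 for Ccr3 in CC030 replicate 1, 0.625 for Ccr7 in CC025 replicate 2 and 0.559 for Cxcr3 in CC004 replicate 2. Lymphocyte receptors such as Ccr4, Ccr6, Ccr9 and Cxcr5, and Xcr1 of dendritic cells, stayed under 0.3 TPM in every library.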

How the data were processed

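Total RNA-seq was made from 200 ng RNA with a stranded kit that depletes ribosomal RNA, per the labels' protocols. The authors deposited TPM per transcript, since every one of the 96 columns adds up to 1000000, under a file title that says counts. Bowtie and mm9 are named in the submitters' processing notes. The sources used here do not say how reads were divided among transcripts. GENCODE identifiers (GRCm38) were found for 91225 of 94545 transcripts, whose values were added up per gene, and 1 further line named no transcript and was 0 throughout. Matched transcripts held a median of 98.2% of TPM. No coordinates were taken from the table, since the builds differ.

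TPM was divided by a trimmed-mean scaling factor per library (0.772 to 1.27, from genes with a mean of 1 TPM, 30% trimmed by ratio and 5% by level). Genes at 0.5 TPM in 2 libraries were tested on log2(scaled TPM + 0.5), a scale that understates changes of low genes, with limma 3.58.1 in R 4.3.3 (variance trend, Benjamini-Hochberg over all genes, or over all genes and strains). Scores are mean z-scores of 14 markers, and their own markers were left out of the fits on them. Fold changes ± SE are log2. The rule named every described gene, with full values for the 8 of highest mean, the 10 of largest range and the 5 of steepest slope on each score. Results of 1 described gene are not reported here and are left out of the figures, although counts over the set include it. The members, gene lists, pairs and scores were chosen with earlier results of these data known. Promoters came from RefSeq (GRCm38.p6), which held 23 of the 33 genes. The fits were tested on simulated data, with scipy 1.17.1 for permutations. Alternatives were other scaling, pseudocounts and filters, subsets of strains and leaving out each library; leaving out CC051 was added after its values were seen. The labels carry title numbers whose meaning is not given, and strains were split by them (20 strains with numbers 20 or more apart, 19 within 5).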

Additional observations from a re-analysis of the deposited data

Results flagged for a closer look

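In the 6 strains with 4 libraries, 12 of the genes named by the rule were examined, which made 72 groups of 4. In 8 of them 1 library lay far from the other 3 (gap over range above 0.829, Dixon's test on the log2 scale). Chance alone flags about 1 in 20 groups.

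CC038 replicate 1 was such a library for 3 genes, and 2 of them were low: Ccl12 at 3.34 scaled TPM (others 15.2 to 20.3) and Ccl7 at 21.1 (38.1 to 41.2), while Ackr3 was high at 19.8 (9.25 to 10.4). CC025 replicate 1 was low for 2 receptors, Ccr1 at 0.247 (0.662 to 0.710) and Cxcr4 at 0.680 (1.88 to 2.23). In CC004, Cxcl12 stood at 88.7 in replicate 2 (25.9 to 31.1). Cxcl1 was low in CC008 replicate 2, at 1.10 (2.29 to 2.47), and high in CC041 replicate 3, at 1.16 (0.178 to 0.243). The cause was not tested for any of them.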

How the results depend on the processing

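No paired analysis was possible because the labels give no replicate numbers shared between strains. The 31 genes with a strain effect were 31 or 32 without each library in turn, and 23 in strains with title numbers 20 or more apart. Calls of a gene in a strain (253 in all) came to 73 in those strains, where fewer strains were tested, and 241 to 350 without 1 library. The 17 genes rising with the macrophage score were 15 to 21 without 1 library, and none fell. Genes falling with the osteoblast score (15) were 8 on deposited TPM without scaling, 5 in strains with numbers within 5, 7 without CC030 and CC071, and 12 to 20 without 1 library; the 2 rising were 1 with a filter at a mean of 1 TPM and 1 in strains 20 or more apart. Ccl5, osteoblast slope: its sign turned, to 0.006, in strains within 5 (adjusted p = 0.948). The 5 rising with the interferon score were 3 with a pseudocount of 0.1, 3 without a filter, 2 with a filter at a mean of 1 TPM, 1 in strains 20 or more apart, 0 in strains within 5, 3 without CC030 and CC071, and 1 (without CC024 replicate 1) to 7 without 1 library. The 30 genes with a strain effect beside the macrophage score were 14 in strains 20 or more apart and 28 to 32 without 1 library. Within strains, the 16 rising were 8 in strains 20 or more apart, 9 in strains within 5 and 14 to 19 without 1 library, and the 1 falling (Ackr3) was 0 in both subsets. The causes were not tested. Upper quartile scaling left 31 genes with a strain effect and a pseudocount of 1 left 29. The 17 pairs were 14 in strains 20 or more apart and 15 without CC030 and CC071. Cxcl3 lost its strain call beside the macrophage score (adjusted p = 0.047) without 85 of 95 libraries, and the within-strain slope of Cxcl12 was lost without 11. Sequencing depth is not recorded in TPM, so its limit on low genes cannot be stated.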
